A study of Mus musculus with 6 samples.

Results

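The genes described here, 10 of the 54532 in the expression table, sense blood flow in endothelial cells or set the tone of the vessel wall. They were chosen by name: Klf2, Klf4, Piezo1, Nos3, Edn1, Ece1, Ednrb, Ace, Ptgs1 and Ptgs2, each of which matched 1 row. RNA-seq was run on endothelial cells sorted by FACS as live, CD31+, CD45- and PDGFRb- from the brains of male and female mice aged 12 to 16 weeks. Every mouse carried Df(h22q11)/+, a heterozygous deletion used to model the human 22q11.2 deletion syndrome, and wild-type mice were not analysed here. For 4 weeks the untreated group (libraries F_1, F_2 and M_1, F for female and M for male) ate irradiated base chow and the treated group (libraries F_1, M_1, M_2) ate chow with 0.5% bezafibrate. Values per library are given in these orders throughout. Each library pooled 3 brains of 1 sex, so the n of 3 per group counts pools, and the comparison asked what bezafibrate, a fibrate drug that activates PPAR nuclear receptors, did to endothelial expression on this deletion background.

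As background, flowing blood drags on the endothelium, and steady drag, or shear stress, is read by junctional receptors and by channels such as Piezo1. A kinase cascade that ends in ERK5 and the MEF2 factors then switches on the transcription factors KLF2 and KLF4, which favour genes of a relaxed, non-clotting vessel, among them Nos3, and oppose the constrictor gene Edn1. Vessel tone further depends on peptides that are cut into shape by the enzymes ECE1 and ACE and on prostanoids, which start with the enzymes PTGS1 and PTGS2. In the brain these signals pass from endothelial cells to the smooth muscle and pericytes that set local blood flow.

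Regulatory sequence bears on the members at the head of this chain, so the promoters of both KLF genes, the sensor Piezo1 and the peptide gene Edn1 are shown, from RefSeq (GRCm38.p6), 250 bases before to 50 after the annotated start. Capitals mark 3 motifs on either strand: the box CACCC that KLF factors read, the core GAGACC of a shear stress response element, and the MEF2 consensus. A match on the opposite strand appears as its reverse complement.

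Klf2 (chr8:72318812-72319111, plus strand): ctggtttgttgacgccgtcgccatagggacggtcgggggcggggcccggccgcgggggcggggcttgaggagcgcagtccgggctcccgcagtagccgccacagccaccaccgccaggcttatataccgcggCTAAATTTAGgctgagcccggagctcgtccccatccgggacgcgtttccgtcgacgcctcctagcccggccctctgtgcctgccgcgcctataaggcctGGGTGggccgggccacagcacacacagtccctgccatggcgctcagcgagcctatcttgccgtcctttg

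Klf4 (chr4:55532426-55532725, minus strand): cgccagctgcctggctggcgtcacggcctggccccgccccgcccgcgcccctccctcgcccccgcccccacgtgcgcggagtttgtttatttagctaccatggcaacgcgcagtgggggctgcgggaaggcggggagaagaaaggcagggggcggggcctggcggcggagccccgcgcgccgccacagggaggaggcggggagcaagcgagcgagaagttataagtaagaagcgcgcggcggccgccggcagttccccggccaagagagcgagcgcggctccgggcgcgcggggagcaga

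Piezo1 (chr8:122551280-122551579, minus strand): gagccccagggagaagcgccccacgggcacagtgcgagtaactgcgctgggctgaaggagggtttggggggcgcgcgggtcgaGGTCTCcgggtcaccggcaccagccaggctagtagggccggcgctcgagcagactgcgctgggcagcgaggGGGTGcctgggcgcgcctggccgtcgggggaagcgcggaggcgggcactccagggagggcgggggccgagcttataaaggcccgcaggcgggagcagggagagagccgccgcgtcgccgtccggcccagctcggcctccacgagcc

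Edn1 (chr13:42301226-42301525, plus strand): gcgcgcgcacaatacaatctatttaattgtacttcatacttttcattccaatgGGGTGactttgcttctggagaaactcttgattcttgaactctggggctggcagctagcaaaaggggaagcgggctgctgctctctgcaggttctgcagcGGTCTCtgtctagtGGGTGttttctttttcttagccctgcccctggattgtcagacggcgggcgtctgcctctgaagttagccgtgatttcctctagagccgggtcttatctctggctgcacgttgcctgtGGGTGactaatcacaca

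The Klf2 promoter held a MEF2 consensus, which reads the same on both strands, with its first base at position -118 from the start. Of all 32851 promoters in the table, 3.19% held one. Klf2 also had 1 CACCC, Piezo1 had 1 CACCC and 1 GAGACC, and Edn1 had 3 CACCC and 1 GAGACC. The Klf4 promoter held no match to any of the marked motifs, MEF2 included. No motif overlapped another in these windows. CACCC lay in 57.5% of all promoters and GAGACC in 16.4%, so that a match to the first is common. These are matches of letters in a window and not measured binding sites.

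Library sizes were even, with 16858130 to 20228619 summed reads, and the libraries were rich in endothelial transcripts. On the first principal component (39.3% of the variance) untreated M_1 scored 30.3, bezafibrate F_1 scored 24.4, and the other 4 libraries scored -22.6 to 1.62. The ratio of summed reads to the library size that scaled the table, called the composition ratio here, was 0.950, 1.03 and 1.09 in the untreated group and 1.06, 0.888 and 0.897 in the treated group. Summed FPKM of 12 endothelial markers was 6969 to 11365, of 8 pericyte markers 182 to 335, of 7 astrocyte markers 26.8 to 62.7 and of 5 erythrocyte markers 45.4 to 298. The 6 choroid plexus and ependymal markers summed to 402, 359 and 385 FPKM untreated and to 407, 555 and 938 FPKM with bezafibrate, and the 7 oligodendrocyte markers to 151, 92.9 and 134 and to 94.9, 89.6 and 102 FPKM. On the deposited scaling the log2 difference was above 0 in 6 of 6 choroid plexus and ependymal markers (median 0.32), and below 0 in 7 of 7 oligodendrocyte (median -0.39), 7 of 7 astrocyte (-0.28), 8 of 8 pericyte (-0.26) and 11 of 12 endothelial markers (-0.15). None of these passed in limma, where the myelin genes Mbp and Mobp had adjusted p = 0.986 and 0.999 (unadjusted p = 0.00593 and 0.0110). The part of these cells in the gene and list values was not tested. In bulk samples fewer cells of a type and less RNA per cell cannot be told apart.

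The members spanned 3 orders of magnitude in level per length. Klf2 had a mean over the 6 libraries of 1798 FPKM (reads per length of gene model and library size) and ranked 13 among all genes, and Klf4 had 766.5 FPKM at rank 41. Edn1 followed with 395 FPKM, Nos3 with 162, Ece1 with 111, Piezo1 with 35.7, Ace with 26.9, Ptgs2 with 9.25, Ednrb with 3.16 and Ptgs1 with 1.41. The ranges of neighbours in this order did not overlap, except that Nos3 exceeded Ece1 in 5 of 6 libraries, Piezo1 exceeded Ace in 3 of 6, and Ednrb exceeded Ptgs1 in 5 of 6. The fewest reads behind any value were 58, for Ptgs1.

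None of the 10 members passed the threshold for bezafibrate against untreated (limma on log2(FPKM + 1), adjusted p under 0.05, adjusted over 11277 genes tested), and the smallest adjusted p among them was 0.999. Over all genes 1 was called, or 0.00887%. At an unadjusted p under 0.05 there were 0 members, against 4.19% of all genes. The log2 difference was below 0 in 7 members and above 0 in 3, with a median of -0.13, against a median of -0.01 over all genes, of which 51.8% lay below 0. These directions depend on scaling. With each library rescaled to the same sum (TPM), 5 members lay below 0 and 5 above, the median of the members was -0.019, and the median of all genes shifted by 0.11, with 7 members below it. With quantile normalization 4 lay below 0 and 6 above, with a median of 0.016. The exact permutation test of 3 against 3 libraries cannot give a two-sided p below 0.1.

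**Figure D1:**
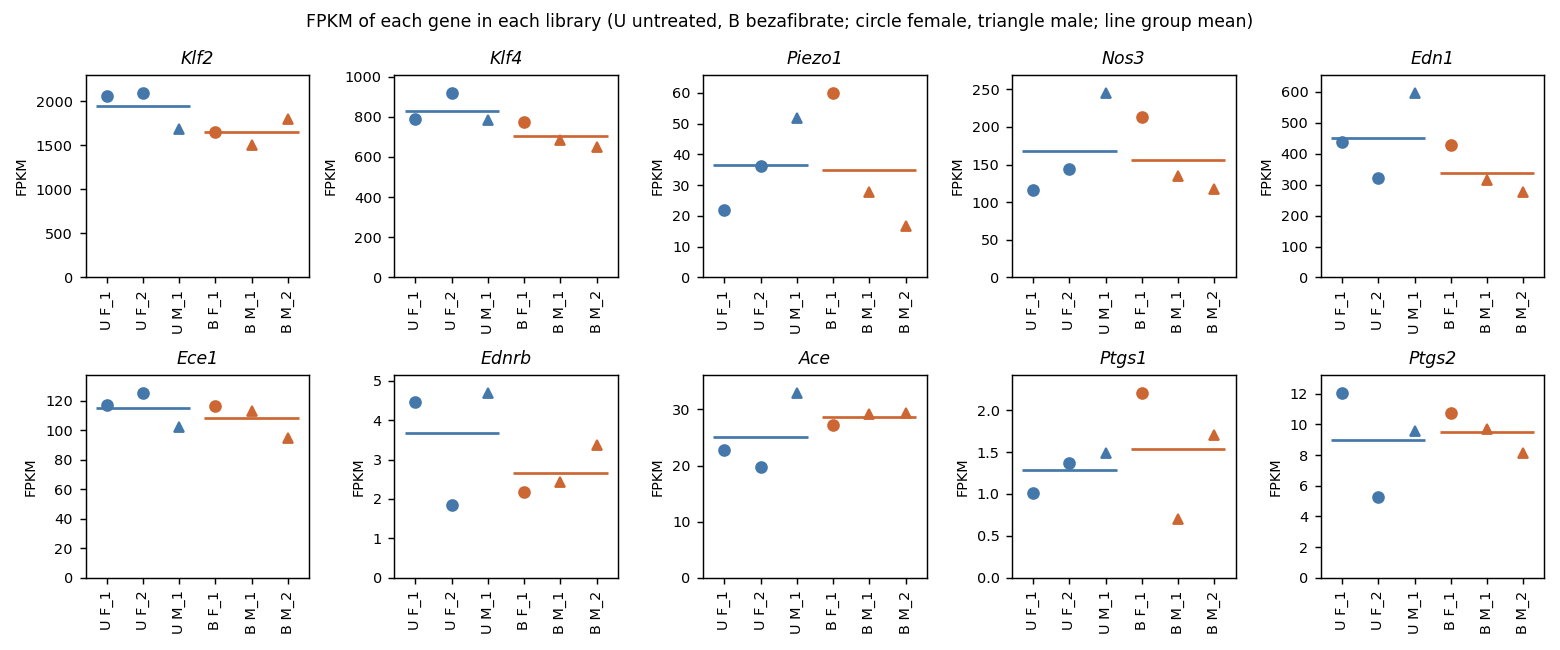
FPKM (vertical axis, from 0) of each of the 10 genes in the 6 libraries (horizontal axis; U untreated, B bezafibrate; circles female, triangles male), with lines at the group means. The groups overlap in each panel except that of Klf4, where bezafibrate libraries lie at 647 to 773 FPKM and untreated libraries at 783 to 919 FPKM.

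Klf2 (ENSMUSG00000055148, chromosome 8, 72319033 to 72321656) encodes a zinc finger factor that steady flow induces. It had 2061, 2095 and 1684 FPKM untreated, and 1648, 1501 and 1799 FPKM with bezafibrate. The 2 untreated female libraries were the highest, and the groups overlapped through untreated M_1 and bezafibrate M_2. The means were 1947 ± 228 and 1649 ± 149 FPKM (SD, n = 3 each), with a fitted log2 difference of -0.24 (SE 0.169, 95% interval -0.63 to 0.16).

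Klf4 (ENSMUSG00000003032, chromosome 4, 55527143 to 55532466), its close relative with many shared targets, had 791, 919 and 783 FPKM untreated. The bezafibrate libraries had 773, 686 and 647 FPKM. All 3 were below the lowest untreated library, and Klf4 was the 1 member whose groups did not overlap. Over all genes the groups did not overlap in 8.42%, and in 4.13% with bezafibrate lower. The means were 831 ± 76.0 and 702 ± 64.2 FPKM (SD, n = 3 each), with a fitted log2 difference of -0.24 (SE 0.153, 95% interval -0.60 to 0.11). After rescaling to TPM, the Klf4 groups overlapped, and no member was separated (1.88% of all genes lower). The ratio of Klf2 to Klf4 within a library was 2.60, 2.28 and 2.15 untreated and 2.13, 2.19 and 2.78 with bezafibrate (exact permutation p = 1, two-sided).

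Without untreated M_1 and bezafibrate F_1, 4 members were separated and lower with bezafibrate, namely Klf2, Klf4, Edn1 and Ece1, and Ace was separated and higher. With 2 libraries a group such separation is frequent, at 19.9% of all genes lower and 18.1% higher, and 0 members were called.

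Piezo1 (ENSMUSG00000014444, chromosome 8, 122481698 to 122551329), the stretch-gated cation channel, varied most, with a highest value 3.59 times the lowest. It had 21.9, 36.2 and 51.7 FPKM untreated, and 60.0, 27.9 and 16.7 FPKM with bezafibrate. The highest values were in untreated M_1 and bezafibrate F_1, 1 library of each group. The means were 36.6 ± 14.9 and 34.9 ± 22.5 FPKM (SD, n = 3 each), with a fitted log2 difference of -0.17 (SE 0.468, 95% interval -1.26 to 0.91). The difference was 0.11 without untreated M_1 and 0.24 without bezafibrate M_2. Of the exon bases of Piezo1, 24.6% also lie in Ctu2 on the opposite strand, which had 1.67 to 2.64 FPKM.

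Nos3 (ENSMUSG00000028978, chromosome 5, 24364810 to 24384474), the endothelial nitric oxide synthase, had 116, 143 and 245 FPKM untreated. With bezafibrate it had 213, 135 and 118 FPKM. As with Piezo1, untreated M_1 and bezafibrate F_1 held the highest values, and the other 4 libraries lay between 116 and 143 FPKM. The means were 168 ± 67.8 and 155 ± 50.9 FPKM (SD, n = 3 each), with a fitted log2 difference of -0.09 (SE 0.320, 95% interval -0.84 to 0.65), and the difference was 0.22 without untreated M_1 and 0.083 without bezafibrate M_2. Opposite-strand genes share 32.3% of the Nos3 exon bases. They are Atg9b, at 0.108 to 1.92 FPKM, and Gm15587, at 0.510 to 3.45 FPKM.

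Edn1 (ENSMUSG00000021367, chromosome 13, 42301476 to 42307990) encodes the precursor of endothelin-1, a potent constrictor peptide made by endothelium. It had 436, 321 and 597 FPKM untreated, and 429, 314 and 275 FPKM with bezafibrate. Untreated M_1 was the highest and bezafibrate M_2 the lowest, while untreated F_2 lay among the bezafibrate values. The means were 451 ± 139 and 339 ± 80.5 FPKM (SD, n = 3 each), with a log2 difference of -0.39 (SE 0.265, 95% interval -1.01 to 0.23). It was -0.17 without untreated M_1 and -0.61 without untreated F_2. In the fit on log2(FPKM + 1) the difference of Edn1 was the largest in size among the members. That scale understates changes of low genes, and the group mean changed by -27.4% for Ednrb against -24.8% for Edn1.

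The pattern over libraries that Piezo1, Nos3 and in part Edn1 showed was not that of the KLF genes. Relative to its own mean over the 6 libraries on the log2 scale of FPKM, Nos3 stood at 0.66 in the untreated library M_1 and at 0.46 in bezafibrate F_1, Piezo1 at 0.68 and 0.89, and Edn1 at 0.64 and 0.17. Klf2 stood at -0.08 and -0.12 in these libraries, and Klf4 at 0.04 and 0.02. Edn1 stood at 0.19 in untreated F_1 too, above its value in bezafibrate F_1. The composition ratio was highest in untreated M_1 and bezafibrate F_1. Its part in these values was not tested beyond a fit with the ratio as a covariate. In that fit the differences were 0.32 for Nos3 and 0.45 for Piezo1 (limma adjusted p = 0.728 and 0.708), and -0.16 for Edn1.

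**Figure D2:**
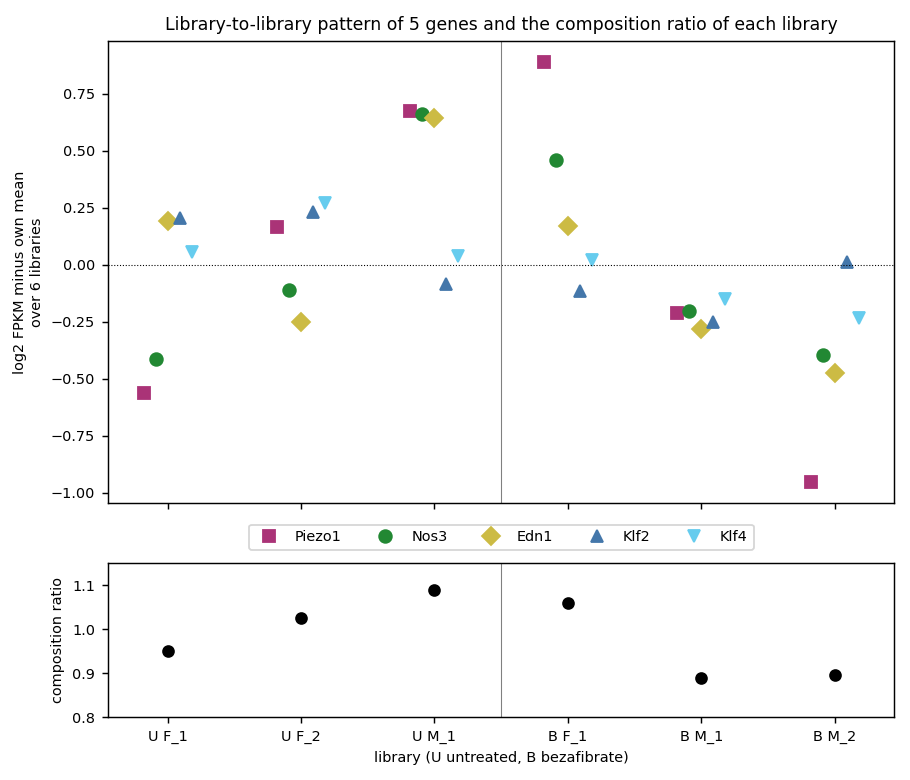
Upper panel, log2 FPKM of 5 genes minus the gene's own mean over the 6 libraries (vertical axis), by library (horizontal axis; U untreated, B bezafibrate); lower panel, the composition ratio of each library (summed reads over the size that scaled the table, axis from 0.8). Piezo1, Nos3 and Edn1 lie above 0 in U M_1 and B F_1, where the ratio is 1.09 and 1.06, while Klf2 lies below 0 in both. Edn1 also lies above 0 in U F_1, at 0.19 with a ratio of 0.950, and below 0 in U F_2, at -0.25 with a ratio of 1.03.

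Since untreated M_1 was a single male and bezafibrate F_1 a single female library, the same values appear as a treatment difference that differs by sex. The male minus female contrast of the treatment difference was -2.28 for Piezo1 (SE 0.541), -1.67 for Nos3 (SE 0.306) and -1.22 for Edn1 (SE 0.362). None passed in limma (adjusted p = 0.0916, 0.0599 and 0.136), where 0.665% of all genes were called. All 3 passed by limma-voom on reads recovered from the table (adjusted p = 0.00636, 0.00697 and 0.0483), where 7.64% of all genes were called. Without untreated F_2, Piezo1 and Nos3 passed in limma (adjusted p = 0.0278 and 0.0321), where 4.98% of all genes were called and 3 of the 4 cells of the design hold 1 library. Sex cannot be told apart here from whatever else sets these libraries apart, since each of these cells of the design holds 1 library.

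The balance of constrictor to dilator transcripts was compared as the ratio of Edn1 to Nos3, chosen after the values were seen. It was 3.75, 2.23 and 2.44 untreated and 2.01, 2.33 and 2.33 with bezafibrate. Untreated F_1 alone lay well above the rest, and the other 5 libraries lay between 2.01 and 2.44. The means were 2.81 ± 0.823 and 2.22 ± 0.183 (SD, n = 3 each; exact permutation p = 0.3, two-sided, and adjusted p = 1 over 6 ratios computed). A ratio within a library does not depend on a factor that multiplies all its values, as in TPM, but can change with quantile normalization.

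Ece1 (ENSMUSG00000057530, chromosome 4, 137862237 to 137965229), the protease that cuts big endothelin to its active form, was the steadiest member, with a coefficient of variation of 9.95% over the 6 libraries. It had 117, 125 and 102 FPKM untreated, and 116, 113 and 94.4 FPKM with bezafibrate. The groups overlapped, and the log2 difference was -0.09 (SE 0.150, 95% interval -0.44 to 0.26), or 0.0036 without bezafibrate M_2.

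Ednrb (ENSMUSG00000022122, chromosome 14, 103814625 to 103844402), the endothelin receptor that in endothelium clears the peptide and couples to nitric oxide release, had 4.45, 1.86 and 4.68 FPKM untreated. With bezafibrate it had 2.17, 2.43 and 3.38 FPKM. Untreated F_1 and M_1 were the highest, and untreated F_2 was the lowest of all 6. The log2 difference was -0.30 (SE 0.287, 95% interval -0.97 to 0.37). The difference was -0.12 without untreated M_1, -0.62 without untreated F_2 and -0.027 with untreated M_1 and bezafibrate F_1 both omitted. It rested on 141 to 382 reads a library. Ednrb is also abundant in astrocytes, whose 7 markers summed to 62.7, 41.1 and 52.1 FPKM untreated and 26.8, 46.7 and 49.6 FPKM with bezafibrate, in the same library order. Their part in the Ednrb values was not tested.

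Ace (ENSMUSG00000020681, chromosome 11, 105967945 to 105989964) encodes the enzyme that makes angiotensin II and degrades bradykinin. It had 22.8, 19.7 and 32.9 FPKM untreated and 27.3, 29.1 and 29.4 FPKM with bezafibrate. The bezafibrate libraries were tightly grouped and lay between the female and the male untreated libraries. The means were 25.1 ± 6.88 and 28.6 ± 1.15 FPKM (SD, n = 3 each), with a fitted log2 difference of 0.21 (SE 0.193, 95% interval -0.24 to 0.66). It was 0.41 without untreated M_1 and 0.059 without untreated F_2.

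Of the prostanoid enzymes, Ptgs2 (ENSMUSG00000032487, chromosome 1, 150100031 to 150108227), the inducible cyclooxygenase, exceeded Ptgs1 in every library, at ratios of 3.86 to 13.8. Ptgs2 had 12.0, 5.29 and 9.57 FPKM untreated and 10.7, 9.67 and 8.16 FPKM with bezafibrate. Untreated libraries held both the highest and the lowest value. The log2 difference was 0.13 (SE 0.266, 95% interval -0.49 to 0.75), or -0.16 without untreated F_2.

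Ptgs1 (ENSMUSG00000047250, chromosome 2, 36230426 to 36252272), the constitutive cyclooxygenase, had 1.01, 1.37 and 1.48 FPKM untreated. It had 2.20, 0.702 and 1.70 FPKM with bezafibrate, which held both extremes. The log2 difference was 0.10 (SE 0.264, 95% interval -0.51 to 0.72), or -0.089 without bezafibrate F_1. With 58 to 154 reads a library, Ptgs1 was the least precisely counted member. Microglia, which the CD45- gate is meant to remove, are a known source of Ptgs1 in brain. The 8 microglia and macrophage markers summed to 7.80, 8.52 and 11.0 FPKM untreated and 5.51, 9.97 and 9.88 FPKM with bezafibrate, and their part was not tested.

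**Figure D3:**
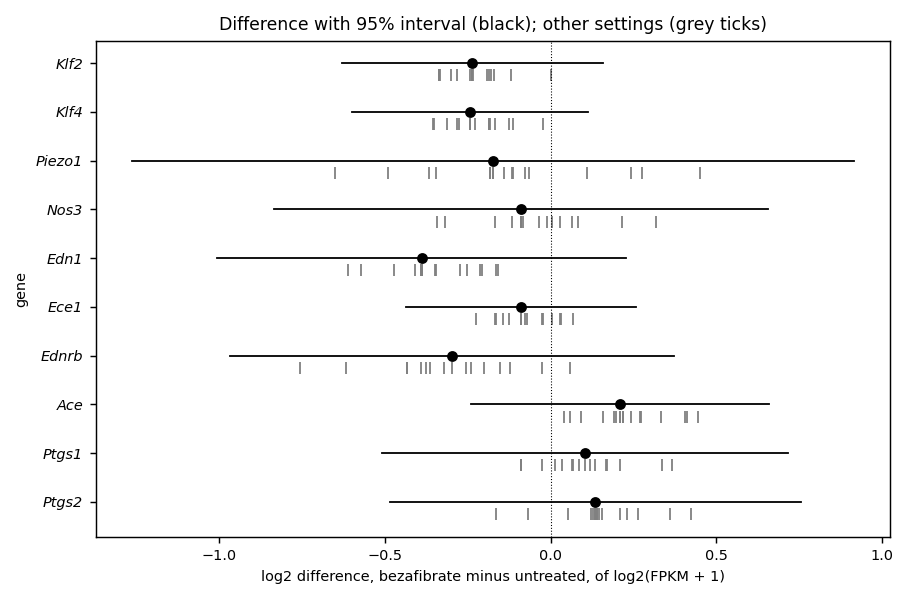
Log2 difference of bezafibrate minus untreated (horizontal axis) for each gene (vertical axis), with the 95% interval in black and the value under each other setting as a grey tick; the limma-voom tick is on a log2 reads scale. Every black interval includes 0, and Edn1, Klf4 and Ace have all their grey ticks on 1 side of 0.

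Around the members, further genes of the same pathways were examined from lists chosen with earlier results of these data known, and none of their genes was called. At an unadjusted p under 0.05 there were 4 immediate early genes, 1 nitric oxide gene and none in the other lists, against 4.19% of all genes. Among 17 flow-sensing genes, all of which passed the filter on low values (1 FPKM or more in 3 or more libraries), 14 differences were below 0 and 3 above, with a median of -0.12. After rescaling to TPM 8 were below 0, and with quantile normalization 9. TPM also shifted the median of all genes, by 0.11. Below that median lay 12 of the 17 on the deposited scaling, 12 after TPM and 10 after quantile normalization. In the other lists this count was the same on the deposited scaling and after TPM, except for nitric oxide genes (9 and 8) and prostanoid genes (5 and 6). S1pr1, a flow-responsive lipid receptor and the most abundant of them, had 657 ± 108 FPKM untreated and 527 ± 109 with bezafibrate (SD, n = 3 each). Notch1 (50.1 ± 7.56 and 40.0 ± 14.3 FPKM) and Heg1, a partner of the CCM proteins (71.1 ± 20.1 and 56.4 ± 18.9 FPKM), had the largest differences in size, at -0.36 and -0.34.

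The next list joined the cascade from MEKK3 through ERK5 to MEF2 with its brakes, Krit1, Ccm2, Pdcd10, Hdac5 and Hdac7. Together they divided evenly, with 6 of 12 genes below 0 and 6 above and a median of -0.013 (4 below 0 after TPM and 7 after quantile scaling). Within the cascade itself, Map3k3, Mef2a, Mef2c and Mef2d lay below 0 on the deposited scaling, and Map3k2, Map2k5 and Mapk7 above. Map3k3, which encodes MEKK3, had 42.0 ± 3.82 FPKM untreated and 41.7 ± 8.62 with bezafibrate. The largest differences in size were in Mef2d, at 40.1 ± 8.58 and 31.6 ± 9.01 FPKM, and Mef2a, at 24.9 ± 12.1 and 20.8 ± 10.6 FPKM. Of 14 genes known to respond to KLF2 or KLF4, 10 passed the filter, 7 below 0 and 3 above, with a median of -0.11 (5 and 6 below 0 after TPM and quantile scaling). These factors induce some genes of the list and repress others, so its count and median have no single direction of KLF activity. Thbd, the anticoagulant receptor thrombomodulin, had 193 ± 33.0 and 166 ± 55.2 FPKM. Angpt2, a vessel-destabilising ligand that KLF2 represses, had 16.8 ± 7.50 and 9.67 ± 6.53 FPKM, and the adhesion gene Sele 0.821 ± 0.443 and 1.65 ± 0.821 FPKM. Sele reached 1 FPKM in every bezafibrate library but, among untreated libraries, only in F_1 (1.33 FPKM). Slco2a1, also above 0, had 0.895 to 0.980 FPKM untreated and 1.03 to 1.37 FPKM with bezafibrate. The filter thus kept both genes through the group where they were higher, at values near its limit.

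On the deposited scaling and after TPM, other KLF factors lay mostly on the side of Klf2 and Klf4. After quantile scaling Klf2 and Klf4 were near 0, at 0.0020 and -0.022. Of the other KLF factors 9 of 10 passed the filter, 8 below 0 and 1 above, with a median of -0.29. Their median was -0.17 after TPM and -0.19 after quantile scaling, with 8 below 0 in each. Klf6 had 247, 315 and 248 FPKM in the untreated libraries and 246, 185 and 196 FPKM with bezafibrate, so the groups touched without overlapping (log2 difference -0.37, SE 0.175). Klf7 had 19.6 ± 3.73 and 13.0 ± 7.09 FPKM, and opposite-strand genes cover 39.4% of its exons. Klf3 had 39.5 ± 16.8 and 30.6 ± 19.5 FPKM. Klf2 and Klf4 respond within minutes to stimulation, as do immediate early genes, which cell dissociation induces. Of 19 such genes, 18 lay below 0 and 1 above, with a median of -0.28. The median was -0.17 after TPM and -0.090 after quantile scaling, with 13 below 0 in each. Below the median of all genes lay 18 on the deposited scaling, 18 after TPM and 13 after quantile scaling. In limma 4 had an unadjusted p under 0.05, namely Nr4a1, Cyr61, Nr4a2 and Nr4a3. Nr4a1, an orphan nuclear receptor, had 849, 622 and 530 FPKM untreated and 412, 289 and 365 FPKM with bezafibrate (limma adjusted p = 0.962). Jun, the most abundant, had 2393 ± 470 and 2374 ± 131 FPKM. The part of dissociation in the KLF values was not tested.

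In the nitric oxide pathway 12 of 23 genes that passed the filter, from a list of 26, lay above 0 and 11 below, with a median of 0.0042 (5 and 7 below 0 after TPM and quantile scaling). Gch1, which encodes the rate-limiting enzyme for the cofactor tetrahydrobiopterin that Nos3 needs, was the 1 gene at an unadjusted p under 0.05. It had 33.6, 38.7 and 37.5 FPKM untreated and 32.2, 19.0 and 19.6 FPKM with bezafibrate. Its groups did not overlap (log2 difference -0.65, SE 0.211, limma adjusted p = 0.999). Hsp90ab1, the most abundant gene of the list and a chaperone of Nos3, had 815 ± 82.2 and 760 ± 86.6 FPKM.

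The other endothelin genes that passed the filter, 2 of 6, both had differences above 0. They were Edn3, with 34.5 ± 3.89 FPKM untreated and 37.1 ± 2.73 with bezafibrate, and the constrictor receptor Ednra, with 1.20 ± 0.0983 and 1.28 ± 0.343 FPKM. Of 15 renin-angiotensin and kinin genes 8 passed, 5 below 0 and 3 above, with a median of -0.041 (2 and 4 below 0 after TPM and quantile scaling). Atp6ap2, the prorenin receptor, had 22.2 ± 1.35 and 21.5 ± 1.81 FPKM, the aminopeptidase Anpep, which is also a pericyte marker, 2.19 ± 0.757 and 1.47 ± 0.610 FPKM, and the carboxypeptidase Prcp 6.37 ± 0.205 and 5.53 ± 1.39 FPKM. Of 20 further prostanoid genes 10 passed, 6 below 0 and 4 above, with a median of -0.017 (4 and 5 below 0 in the same order). Among those above 0, Slco2a1 passed only through the bezafibrate libraries. Abcc4, an efflux pump that also exports prostanoids, had 75.2 ± 6.87 and 85.2 ± 19.2 FPKM. Ptges, which makes prostaglandin E2, had 5.40, 8.92 and 16.5 FPKM untreated and 9.58, 3.59 and 4.37 FPKM with bezafibrate, so that untreated M_1 and bezafibrate F_1 were again the highest. The prostacyclin synthase Ptgis had 7.02 ± 2.78 and 5.66 ± 1.13 FPKM. Among 10 channels and connexins of conducted dilation 7 passed, 6 below 0 and 1 above, with a median of -0.073 (3 and 5 below 0). Gjc1 had 42.5 ± 17.3 and 39.5 ± 13.1 FPKM, the arterial connexin Gja4 22.3 ± 6.65 and 15.6 ± 4.05 FPKM, and the pericyte channel Kcnj8 7.86 ± 3.61 and 5.33 ± 1.02 FPKM. Kcnj8 and Abcc9 of this list are themselves among the 8 pericyte markers, all of which had differences below 0. On the same deposited scaling 11 of 12 endothelial markers lay below 0 too. The part of pericytes in these values was not tested.

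**Figure D4:**
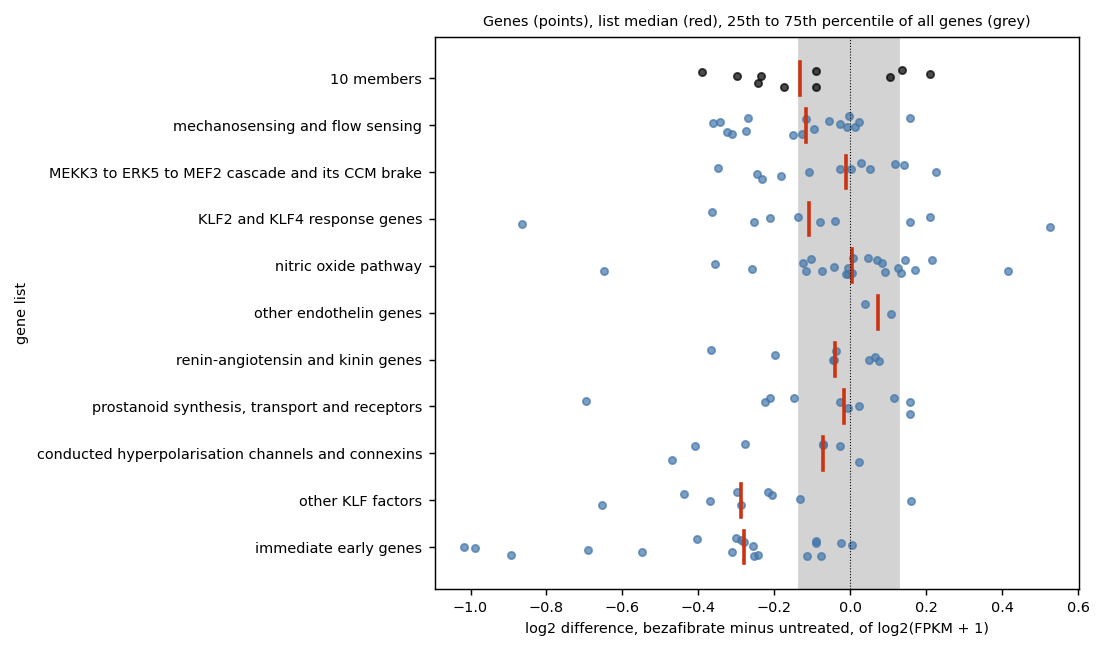
Log2 difference of bezafibrate minus untreated (horizontal axis) for the 10 members (black) and for the genes of each other list that passed the filter (blue), with list medians in red and the 25th to 75th percentile of all genes tested in grey. The medians of the other KLF factors and of the immediate early genes are -0.29 and -0.28 on the deposited scaling. Relative to the median of all genes they are -0.28 and -0.27 there, -0.27 and -0.27 after TPM, and -0.19 and -0.095 after quantile scaling. The grey band is the spread of single genes and no yardstick for a list's median.

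Likeness to a member was measured as the root mean square distance between log2(FPKM + 1) profiles over the 6 libraries, each centred on its own mean, among 10056 protein-coding genes. Nearest to Nos3 were Flna, which encodes the actin cross-linker filamin A, Cast and Anxa2, at distances of 0.0495, 0.0615 and 0.0625, against a root mean square of 0.412 for Nos3 itself. Flna had 32.8, 42.2 and 67.8 FPKM untreated and 62.0, 38.2 and 31.0 FPKM with bezafibrate, with the highest values in the same libraries as Nos3. Nearest to Edn1 were Il20rb, Snx18 and Lysmd2 (0.0917, 0.105 and 0.106, against 0.375). Nearest to Klf2 were Ccnh, Zscan29 and Tsc22d1 (0.0396, 0.0444 and 0.0532, against 0.173). Among the nearest to Klf4 were Ptch1 and Sparcl1 (0.0457 and 0.0477, against 0.161). The most like of so many genes over 6 libraries is a description of these libraries.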

How the data were processed

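The deposited table holds FPKM for 54532 genes with their IDs, positions and lengths, made by the authors. Per the labels' protocols, cDNA was made with SMART-Seq HT, and single-end reads of 75 bases were de-duplicated and mapped with Salmon. The submitters' processing notes name GRCm38. The annotation, the use of strand and how library size was set are not given in those sources. The table heads the untreated male column M_2, and the sample's description ties it to M_1. FPKM times length fell on whole multiples of 1 step for 100% of values (tolerance 0.01 reads), which gave the reads quoted. Such counts limit precision through counting error only.

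Those genes that reached 1 FPKM in 3 or more libraries (11277) were fitted on log2(FPKM + 1) with limma 3.58.1 in R 4.3.3, with a trend, two-sided and Benjamini-Hochberg adjusted over all of them, without a covariate, since the labels state that sexes were combined. Female libraries outnumbered male ones untreated and the reverse held with bezafibrate, so treatment and sex are partly confounded in that fit. Differences on the log2(FPKM + 1) scale understate changes of low genes. The steps were tested on simulated data with independent noise for each gene, and so without the library pattern that genes share here. Exon overlap used GENCODE M21. Named genes in each list were those at an unadjusted p under 0.05 (at most 4), otherwise the 2 largest differences in size, and the most abundant. Likeness names the nearest genes, of which 1 is not reported here. Members and lists were chosen with earlier results of these data known. Alternatives covered the pseudocount, filters, scaling, covariates, weights, a replicate block, limma-voom and omitted libraries.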

Additional observations from a re-analysis of the deposited data

How the results depend on the processing

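No member was called under any of the 17 alternatives to the treatment fit. Over all genes the count of calls, 1 in the reported fit, was 0 with limma-voom, 0 with the replicate block and 0 with untreated M_1 and bezafibrate F_1 both omitted (451, 181 and 903 at an unadjusted p under 0.05), and ran from 0 to 3 with 1 library left out (3 without bezafibrate F_1, and 0 without bezafibrate M_1 or M_2). For the contrast of the treatment difference between the sexes, 0 members were called in limma (0.665% of all genes) and 3 with limma-voom (7.64%). The count ran from 0 to 2 with 1 library left out (2 without untreated F_2, with 4.98% of all genes). The fits without untreated M_1 or bezafibrate F_1 were not run for that count, since they empty a cell. Sex cannot be told apart in this contrast from what else sets those libraries apart. The fit with the composition ratio, and the omissions for the sex contrast, were chosen after the data were seen.

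Of 168 member values under alternatives, 21 in 7 members changed sign, and none of these was called. Rescaling to TPM shifted the median of all genes by 0.11, and gave 0.027 for both Nos3 and Ece1, which stayed below that median, at -0.073 and -0.072 relative to it. Quantile normalization gave 0.0020 for Klf2, 0.064 for Nos3 and 0.030 for Ece1. The replicate block gave 0.27 for Piezo1, 0.0051 for Nos3, 0.067 for Ece1 and -0.068 for Ptgs2. Only F_1 and M_1 occur in both groups, and the deviations of same-named libraries correlated at -0.36 and -0.30 over genes, so the names were not taken to pair them. The composition ratio as a covariate gave 0.45 for Piezo1 and 0.32 for Nos3. Array weights gave 0.060 for Ednrb and -0.090 for Ptgs1, and leaving out both libraries that stood apart gave -0.028 for Ptgs1. With 1 library left out the ranges were -0.65 to 0.24 for Piezo1, -0.34 to 0.22 for Nos3, -0.17 to 0.0036 for Ece1, -0.089 to 0.37 for Ptgs1, -0.62 to -0.12 for Ednrb and -0.16 to 0.36 for Ptgs2. Klf4, Edn1 and Ace kept their sign in all 17 alternatives, at -0.36 to -0.022, -0.61 to -0.16 and 0.039 to 0.45. The cause of these changes was not tested. Ptgs1 and Ednrb did not pass the filter at an FPKM of at least 5. With sex as a covariate, by which the groups are unbalanced, no member changed sign. The differences in that fit were -0.19 for Klf2, -0.19 for Klf4, -0.078 for Piezo1, -0.12 for Nos3 and -0.41 for Edn1. They were -0.022 for Ece1, -0.43 for Ednrb, 0.092 for Ace, 0.17 for Ptgs1 and 0.14 for Ptgs2.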
